A study of Mus musculus with 6 samples.

Results

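The RNAs encoded by the mitochondrial genome were followed in primary mouse chondrocytes after knockdown of Pkm2. The members are the genes of the deposited table whose symbol begins with mt-, which gave 37 of 55416 genes: 13 protein-coding genes, 2 rRNA genes and 22 tRNA genes. Chondrocytes were taken from mouse knee joints, cultured in DMEM/F12 with 10% FBS, and transfected with a control siRNA of scrambled sequence (siNC, 3 libraries) or with an siRNA against Pkm2 (siPkm2, 3 libraries). The genotype label of the siNC libraries is WT, and no other allele or agent is named for either group; knockdown by siRNA is transient, and of the siRNAs designed against Pkm2 the study chose the third, without saying that these libraries were made with it. The labels give neonatal mice as the source, whereas the supplementary methods describe adult animals. The titles name all 3 knockdown libraries siPKM2 (here siPkm2), while the genotype labels of replicates 2 and 3 carry other PKM numbers; the titles were followed. The sources used here do not say whether a replicate number stands for an animal, a preparation or a day, so p-values measure the spread between these libraries.

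The mouse mitochondrial genome is a small circle transcribed as long polycistronic RNAs from its heavy and light strands by the polymerase Polrmt with Tfam and Tfb2m. Most coding and rRNA genes are separated by tRNAs, and the long RNA is cut at these tRNAs into mature transcripts, whose levels also depend on processing and decay. The coding genes specify core subunits of complex I (the Nd genes), complex III (mt-Cytb), complex IV (the Co genes) and the ATP synthase (mt-Atp6 and mt-Atp8), and the rRNAs build the mitochondrial ribosome that translates them. Pkm2, the M2 form of pyruvate kinase, catalyses the last step of glycolysis, which supplies the pyruvate that mitochondria oxidise.

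Total counts per library lay between 22317065 and 25691096. Levels are given as CPM (a gene's counts relative to the library total, which was scaled by TMM factors), unless another scale is named. Pkm had 2335, 2746 and 1674 CPM in siNC replicates 1, 2 and 3 and 336, 541 and 309 CPM in siPkm2. The siPkm2 libraries lay below every siNC library, with a log2 fold change of -2.51 ± 0.33 (SE; adjusted p = 0.0738, edgeR's quasi-likelihood test) that passed the threshold of 0.05 once the replicate number was a term of the fit (-2.53 ± 0.13, adjusted p = 0.00932). These counts are per gene and do not separate the isoforms of Pkm. The 14 chondrocyte markers listed were all detected, but their summed level ranged from 11860 to 58470 CPM in siNC and from 16600 to 50740 CPM in siPkm2, and replicate 2 was the lowest of each group. The macrophage list summed to between 8.69 and 75.9 CPM in siNC and between 13.02 and 62.1 CPM in siPkm2, with replicate 2 the highest in each group. Cd68 (1.79 to 55.5 CPM) and Cd14 (0.961 to 23.5 CPM) made up most of this in replicate 2. Adgre1, Ptprc, Itgam and C1qa were at 0.438 CPM or below in every library, while Csf1r (0.56 to 2.14 CPM) and Lyz2 (2.0 to 3.63 CPM) were detected in all 6. The other lists summed to between 1.31 and 3.42 CPM (endothelial), 4.20 and 11.6 CPM (muscle), 2.67 and 7.09 CPM (erythroid), 14.4 and 91.6 CPM (adipocyte), 73.9 and 480 CPM (osteoblast), and 3230 and 8947 CPM (synovial fibroblast) over the 6 libraries. Most of the last sum came from Col1a1 (1404 to 5727 CPM) and Col3a1 (1607 to 3706 CPM). Pdgfra had 77.5 to 293 CPM, Prg4 15.9 to 133 CPM, Thy1 6.01 to 65.7 CPM, Dpp4 2.08 to 9.09 CPM, and Pi16 at most 0.457 CPM. The 25 interferon-stimulated genes summed to 171, 3295 and 229 CPM in siNC and to 2173, 5893 and 1792 CPM in siPkm2.

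Several members share their sequence with a nuclear copy, and this decides what their deposited values mean. A run of 7 unprocessed pseudogenes on chromosome 1 (minus strand, chr1:24611535-24616197 in GRCm38) matched mt-Co1, mt-Co2, mt-Atp6, mt-Co3, mt-Nd3, mt-Nd4l and mt-Nd4 at 99% identity or more, and 5 of the 7 matched without a mismatch over their aligned length. The sequences below are from the GENCODE M21 transcripts (GRCm38), 5′ to 3′, and are shown because a read from them can be assigned to either place. The first 60 bases of mt-Co2, a catalytic subunit of complex IV (chrM:7013-7696, plus strand), and of Gm28661 (chr1:24614885-24615565) have no differing letter.
mt-Co2: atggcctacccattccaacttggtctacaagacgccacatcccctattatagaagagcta
Gm28661: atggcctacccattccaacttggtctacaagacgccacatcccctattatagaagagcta
Where a copy differed, it did so at a single base near the start of the aligned stretch. For mt-Nd3, a small subunit of complex I (chrM:9459-9806), the difference from Gm28438 (chr1:24612775-24613119) was T3C, counted from the first base of the transcript and shown in capitals.
mt-Nd3: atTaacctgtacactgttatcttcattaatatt
Gm28438: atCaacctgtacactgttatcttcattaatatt
For mt-Co1, the largest catalytic subunit of complex IV (chrM:5328-6872), Gm29216 (chr1:24615706-24616197) matched only the last 483 of its 1545 bases, with the difference A1066T in capitals.
mt-Co1: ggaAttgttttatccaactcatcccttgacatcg
Gm29216: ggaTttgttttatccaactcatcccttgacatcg

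The deposited counts split these reads unevenly. Gm28661 held between 96.6% and 98.0% of the counts of mt-Co2 and its copy together, and Gm28437 left only 0.00406% to 4.60% of those of mt-Co3 in the member. Gm10925 held between 91.3% and 98.9% of the counts shared with mt-Atp6, Gm10222 between 87.2% and 96.1% of those shared with mt-Nd4l, and Gm28438 between 78.7% and 95.4% of those shared with mt-Nd3. The small remainder left in the member varied from library to library. The clearest case was mt-Co3, which encodes the third core subunit of complex IV (chrM:8607-9390). Its deposited counts were 791, 881 and 658 in siNC replicates 1, 2 and 3 and 2.52, 2135 and 646 in siPkm2, whereas the counts of mt-Co3 and Gm28437 together were 83463, 45805 and 59971 in siNC and 62083, 46401 and 58289 in siPkm2. In the deposited counts the siPkm2 libraries of mt-Co3 therefore lay both far below and above all siNC libraries, and in the summed counts they lay within the range of siNC. Scaled to CPM, the sum in siPkm2 replicate 2 (1805 CPM) lay just below the lowest siNC library (1853 CPM). For mt-Co1 only 5.16% to 7.26% of the counts were in Gm29216. Gm28439 matched the first 876 bases of mt-Nd4 and had 0 counts in all libraries. The other 8 members tested had no copy of this kind. In the following, values are given as deposited and, for the members with a copy, also with the counts of member and copy added, which are called joined. Joined values count every read of a copy as one of the member. Whether these reads came from the mitochondrial genome or from chromosome 1 was not tested.

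**Figure D1:**
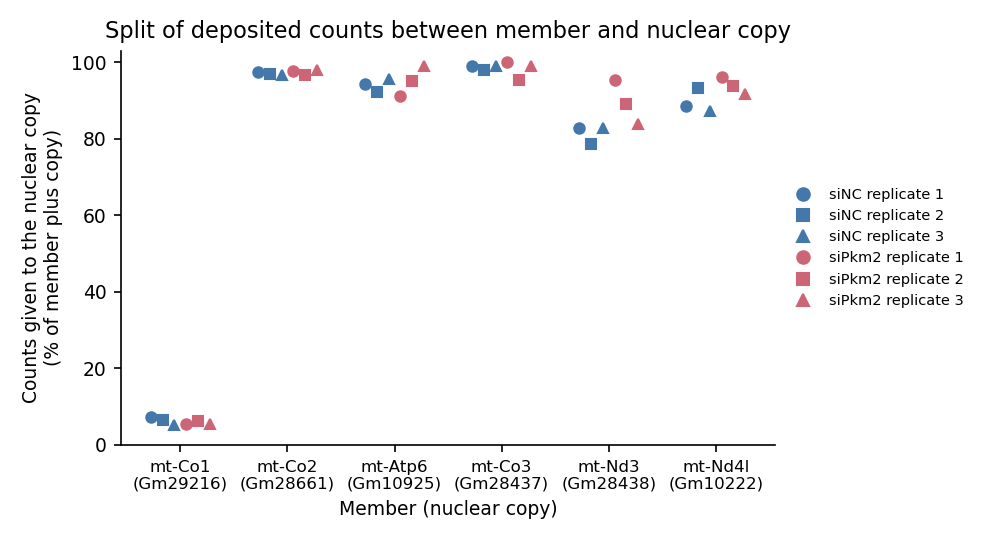
Percent of the deposited counts of member plus nuclear copy that were given to the copy (y axis), for the 6 members whose copy had counts, with 1 point per library (siNC blue, siPkm2 red). The copy held 78.7% or more in every library for 5 members and at most 7.26% for mt-Co1.

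All 13 coding genes and both rRNAs passed the filter and were tested, and the 22 tRNA genes did not pass it. An alternative filter of at least 10 counts in every library kept 14 members. It left out mt-Co3 as deposited, which had 2.52 counts in siPkm2 replicate 1. Joined and divided by annotated length, mt-Co1 had the highest mean in siNC at 5295 ± 504 CPM per kb (SD, n = 3), followed by mt-Co2 (3688 ± 1078), mt-Co3 (3325 ± 950), mt-Atp6 (2032 ± 557) and mt-Cytb (1451 ± 551). The complex I subunits came lower, from mt-Nd1 at 1043 ± 326 CPM per kb to mt-Nd6, the subunit encoded on the light strand, at 378 ± 122 CPM per kb. The rRNAs were lowest, with 169 ± 20.0 CPM per kb for mt-Rnr1 (the small ribosomal subunit's RNA) and 111 ± 40.0 CPM per kb for mt-Rnr2 (the large subunit's RNA). Since the sources used here do not give the RNA selection, the low rank of the rRNAs describes these libraries. Their level in the cells cannot be read from it. The 15 members took the same rank in siPkm2 as in siNC. Neighbours in this order overlapped between libraries of siNC, with the exception of mt-Nd6 and mt-Rnr1, whose lowest and highest siNC libraries were 251 and 191 CPM per kb. As deposited, without the copies, mt-Co3 ranked 15, mt-Co2 ranked 12 and mt-Atp6 ranked 10 of 15 in siNC.

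**Figure D2:**
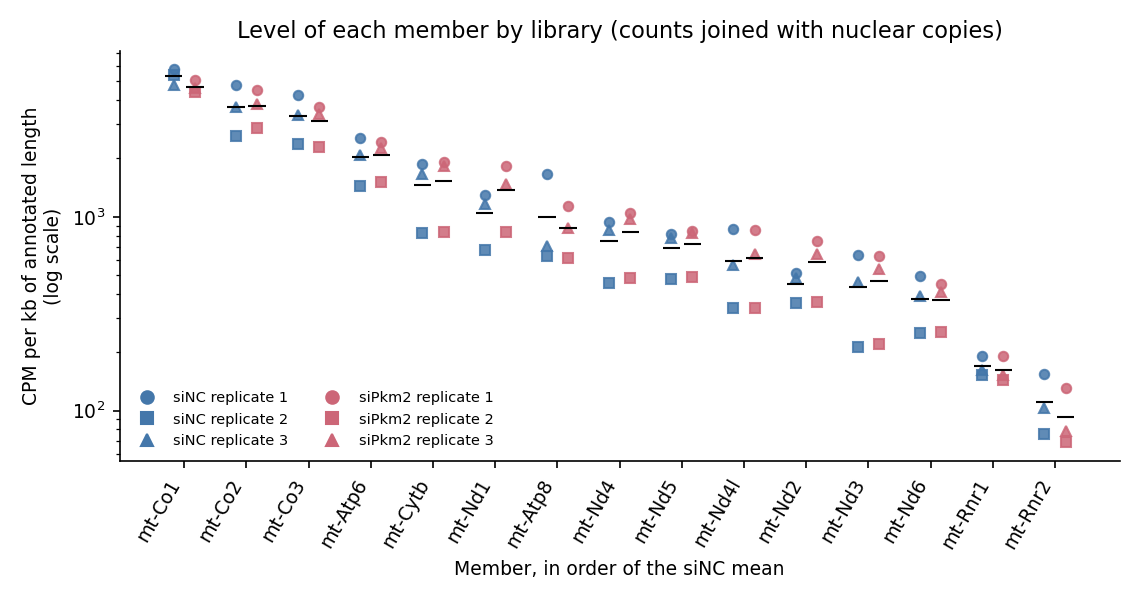
CPM per kb of annotated length (y axis, log scale) of the 15 members tested, with counts joined with those of nuclear copies, ordered by the siNC mean; points are libraries and bars are group means. Levels fall from mt-Co1 (5295 CPM per kb in siNC) to mt-Rnr2 (111 CPM per kb), and replicate 2 (squares) lies lowest for most members.

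The TPM scale gave another order, because TPM divides by an effective length that is very small for short genes. For the 8 members of 900 bases or more, the ratio of counts to TPM followed a line in length that amounted to between 233 and 269 bases subtracted from each gene. For mt-Atp8, a small membrane subunit of the ATP synthase of 204 bases (chrM:7766-7969), the ratio implied an effective length of only 12.5 to 20.6 bases. Its TPM of 23750, 13750 and 16460 in siNC and 26910, 14590 and 18880 in siPkm2 was the highest of all members, while its mean of 1002 ± 577 CPM per kb in siNC ranked 7. Its end also overlaps the start of mt-Atp6 (chrM:7927-8607), the subunit that forms the proton path, by 43 bases of the same strand. These bases are given in capitals within chrM:7912-7984 (GRCm38, plus strand), because they belong to both genes.
mt-Atp8/mt-Atp6: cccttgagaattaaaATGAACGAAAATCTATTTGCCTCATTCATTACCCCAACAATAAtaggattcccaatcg
Other overlaps were shorter, with 7 bases between mt-Nd4l and mt-Nd4, 1 base between mt-Atp6 and mt-Co3, and 14 bases between mt-Nd5 and mt-Nd6. The last pair lies on opposite strands, and the sources used here do not say whether strand was kept.

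No mitochondrial RNA passed the test between siPkm2 and siNC as the design was first fitted. In edgeR, mt-Nd1 alone passed once replicate numbers were paired, a share of members under that of all genes. With the pairing, DESeq2 also called mt-Nd3 as deposited, at a background of 25.8% of genes, and did not call it joined. Without a replicate term, edgeR called 0 of the 15 members, at a background of 0% of 15269 genes (2690 of these had an unadjusted p under 0.05, and 0 members did). DESeq2 called 829 genes, a background of 5.38%, and no member, and 0 members had an unadjusted p under 0.05 in its fit either. The log2 fold changes of the coding members had a median of -0.03 as deposited and 0.05 joined, beside -0.02 over all genes tested. As the libraries of the same replicate number deviated together, the number was also fitted as a block. With the block, 1 of 15 members was called, mt-Nd1, at a background of 23.1% of 15269 genes called at any fold and 12.3% called higher. Joined, mt-Nd1 was again the 1 member called, at a background of 23.2% (adjusted p = 0.043, edgeR). No member was called at a fold over 2, where the background was 5.83% (5.87% joined). In bulk RNA, a change in RNA per cell and a change in the share of cells of a type cannot be told apart.

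Of complex I, mt-Nd1, which encodes the membrane subunit next to the quinone site (chrM:2751-3707), had 1240, 646 and 1108 CPM in siNC replicates 1, 2 and 3 and 1754, 800 and 1414 CPM in siPkm2. The siPkm2 value was higher in 3 of 3 pairs, by 0.50, 0.31 and 0.35 on the log2 scale, while the groups overlapped. mt-Nd1 rose 1.31-fold with the block (log2 fold change 0.39 ± 0.10, SE; adjusted p = 0.0439), and without the block its value was 0.41 ± 0.38 (adjusted p = 0.634). DESeq2 with the block also called mt-Nd1 (0.40 ± 0.11, adjusted p = 0.0028), at a background of 25.8% of genes. Its value was 0.33 without replicate 1 of both groups (adjusted p = 0.227), 0.41 without replicate 3 (adjusted p = 0.221) and 0.42 without replicate 2 (adjusted p = 0.017, at a background of 39.1% of genes). Without replicate 1, edgeR with the block called 0 of 15740 genes (3937 had an unadjusted p under 0.05), and without replicate 3 it called 0 of 15545 (3598 unadjusted), so these fits say nothing about the call of mt-Nd1 in particular.

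mt-Nd2, encoded next to mt-Nd1 (chrM:3914-4951), had 532, 372 and 501 CPM in siNC and 778, 379 and 667 CPM in siPkm2. It was higher in 3 of 3 pairs, by 0.55, 0.03 and 0.41 on the log2 scale, so that its replicate 2 hardly differed between groups. Its log2 fold change with the block was 0.33 ± 0.13 (adjusted p = 0.115), and without replicate 2 of both groups 0.47 ± 0.09 (adjusted p = 0.00863, edgeR). mt-Nd4 and mt-Nd5, the large antiporter-like subunits, were also higher in 3 of 3 pairs, by at most 0.19 for mt-Nd4 and 0.08 for mt-Nd5. mt-Nd4 (chrM:10167-11544) had 1293, 628 and 1171 CPM in siNC and 1436, 664 and 1336 CPM in siPkm2 (block 0.14 ± 0.09, adjusted p = 0.305). mt-Nd5 (chrM:11742-13565) had 1479, 868 and 1417 CPM in siNC and 1550, 896 and 1501 CPM in siPkm2 (block 0.07 ± 0.09, adjusted p = 0.632). These pairs lay close together in every replicate, although the level differed between replicates.

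The smallest complex I subunits showed how much the split with the nuclear copy weighs. mt-Nd4l (chrM:9877-10173) had 29.5, 6.84 and 21.4 CPM in siNC and 9.98, 6.30 and 16.0 CPM in siPkm2 as deposited, lower in 3 of 3 pairs, with a log2 fold change of -0.84 ± 0.57 (adjusted p = 0.499). Joined with Gm10222, mt-Nd4l had 258, 101 and 167 CPM in siNC and 252, 101 and 190 CPM in siPkm2, and the log2 fold change was 0.05 ± 0.44 (adjusted p = 0.971). The deposited and the joined values of mt-Nd4l thus had opposite signs. mt-Nd3 had 37.8, 15.8 and 27.7 CPM in siNC and 10.1, 8.33 and 30.5 CPM in siPkm2 as deposited (-0.73 ± 0.57, adjusted p = 0.555). Joined with Gm28438, mt-Nd3 had 220, 73.9 and 161 CPM in siNC and 219, 77.1 and 188 CPM in siPkm2 (0.09 ± 0.51, adjusted p = 0.951). The deposited counts of mt-Nd3 were called lower by DESeq2 with the block (-0.88 ± 0.35, adjusted p = 0.0439), and the joined counts were not (0.10 ± 0.12, adjusted p = 0.585). mt-Nd6 (chrM:13552-14070, minus strand) had 256, 130 and 203 CPM in siNC and 234, 132 and 212 CPM in siPkm2, with a log2 fold change of -0.02 ± 0.09 with the block (adjusted p = 0.905).

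**Figure D3:**
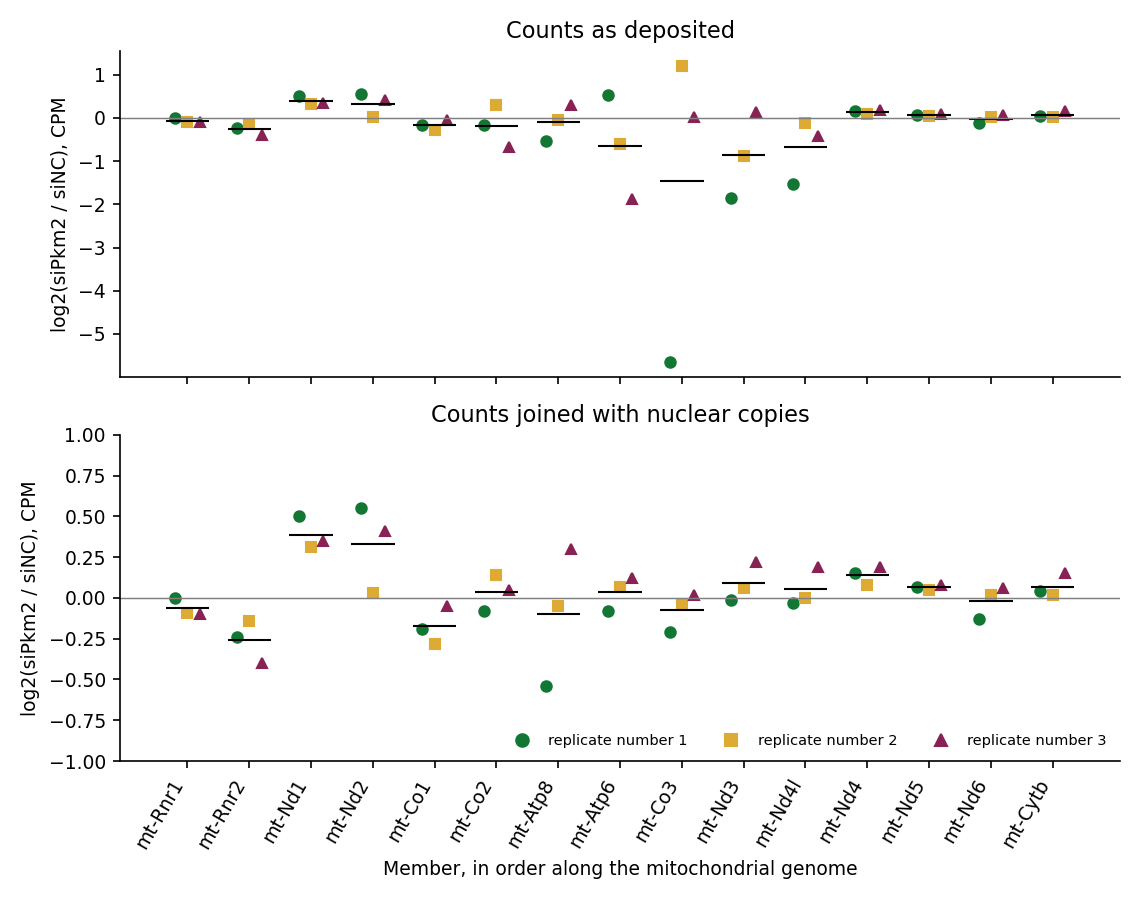
Log2 ratio of siPkm2 to siNC in CPM (y axis, pseudocount 0.5) for the libraries of each replicate number (points) and their mean (bars), for members in genome order, as deposited (upper) and joined with nuclear copies (lower, narrower axis). Ratios of mt-Co3 run from -5.65 to 1.21 as deposited and from -0.21 to 0.02 joined, and mt-Nd1 is above 0 in all 3 pairs.

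mt-Cytb, the only subunit of complex III encoded in mitochondria (chrM:14145-15288), has no copy of this kind, and its pairs of libraries lay close together. It had 2139, 946 and 1895 CPM in siNC and 2200, 956 and 2099 CPM in siPkm2, with a log2 fold change of 0.07 ± 0.10 with the block (adjusted p = 0.644). The pairs differed by at most 0.15 on the log2 scale, while replicate 2 had less than 0.5 of the mean of the other libraries in each group.

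Of complex IV, mt-Co1 had 8253, 7755 and 6971 CPM in siNC and 7386, 6396 and 6707 CPM in siPkm2, lower in 3 of 3 pairs by 0.16, 0.28 and 0.06 on the log2 scale. It did not pass the test (-0.17 ± 0.25, adjusted p = 0.79; block -0.16 ± 0.13, adjusted p = 0.376). In TPM, mt-Co1 had 9069, 9790 and 8562 in siNC and 8303, 7723 and 7810 in siPkm2, so that every siPkm2 library lay below every siNC library (exact two-sided permutation test p = 0.1, the smallest that 3 against 3 libraries allow). The same held for 12.9% of the genes tested, and every siPkm2 library lay above every siNC library for 9.92%. mt-Co1 was thus the 1 of 15 members whose groups did not overlap in TPM, at a background of 22.8% of genes, both as deposited and joined, and on the CPM scale the groups overlapped for all 15 members, where the background of groups without overlap was 24.3%. Joined, mt-Co2 had 3255, 1781 and 2533 CPM in siNC and 3088, 1959 and 2615 CPM in siPkm2 (0.02 ± 0.31, adjusted p = 0.985), against -0.20 ± 0.21 as deposited (adjusted p = 0.677). Joined, mt-Co3 had 3342, 1853 and 2626 CPM in siNC and 2894, 1805 and 2664 CPM in siPkm2. The log2 fold change of mt-Co3 was -0.09 ± 0.32 joined (adjusted p = 0.919) and 0.23 ± 1.35 as deposited (adjusted p = 0.953).

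Of the ATP synthase, mt-Atp6 had 99.1, 76.1 and 62.4 CPM in siNC and 145, 49.9 and 16.6 CPM in siPkm2 as deposited. Joined with Gm10925, mt-Atp6 had 1742, 987 and 1422 CPM in siNC and 1653, 1033 and 1551 CPM in siPkm2. The log2 fold change of mt-Atp6 was -0.17 ± 0.70 as deposited (adjusted p = 0.929) and 0.03 ± 0.30 joined (adjusted p = 0.974). mt-Atp8 had 340, 129 and 145 CPM in siNC and 233, 124 and 178 CPM in siPkm2, and siNC replicate 1 stood above the other 5 libraries. Its pairs went in different directions (-0.54, -0.05 and 0.30 on the log2 scale), and its log2 fold change was -0.20 ± 0.43 (adjusted p = 0.862). In TPM mt-Atp8 was higher in siPkm2 in 3 of 3 pairs, by 0.18, 0.08 and 0.20 on the log2 scale, so its direction depended on the effective length.

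Across the 15 members, 5 were higher in siPkm2 in all 3 pairs on the CPM scale (mt-Nd1, mt-Nd2, mt-Nd4, mt-Nd5 and mt-Cytb) and 3 were lower (mt-Rnr2, mt-Co1 and mt-Nd4l). That is 53.3% of the members, while 61.1% of all genes tested differed in a single direction in all 3 pairs (30.5% higher and 30.6% lower). Joined, mt-Nd4l no longer belonged to them and the share was 46.7%. In TPM as deposited, 3 were higher (mt-Nd1, mt-Atp8 and mt-Nd4) and 3 lower (mt-Rnr2, mt-Co1 and mt-Nd4l), or 40.0%. In joined TPM, 6 were higher (mt-Nd1, mt-Atp8, mt-Atp6, mt-Nd3, mt-Nd4l and mt-Nd4) and 3 lower (mt-Rnr2, mt-Co1 and mt-Co3), which is 9 of 15. The members that held their direction on all 4 scales were mt-Nd1 and mt-Nd4, higher, and mt-Rnr2 and mt-Co1, lower. Only mt-Co1 among them had a copy with counts, so joining could not change the direction of the others. The share of all genes with a single direction in TPM is not given here. When replicate 2 of both groups was left out, edgeR with the block called 3 of 15 members joined, at a background of 39.4% of genes: mt-Nd1 and mt-Nd2 rose and mt-Rnr2 fell (-0.33 ± 0.09, adjusted p = 0.0245). As deposited, mt-Co2 (-0.43 ± 0.13, adjusted p = 0.0379) and mt-Nd4l (-0.99 ± 0.26, adjusted p = 0.0232) were called lower as well, at a background of 39.1%, and joined their values were -0.02 ± 0.10 and 0.07 ± 0.09.

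The rRNA mt-Rnr2 (chrM:1094-2675) had 245, 120 and 163 CPM in siNC and 208, 109 and 124 CPM in siPkm2, lower in 3 of 3 pairs by 0.24, 0.14 and 0.40 on the log2 scale. Its log2 fold change was -0.26 ± 0.35 (adjusted p = 0.756) and with the block -0.26 ± 0.09 (adjusted p = 0.0875). mt-Rnr1 (chrM:70-1024) had 183, 146 and 156 CPM in siNC and 183, 137 and 145 CPM in siPkm2, with -0.06 ± 0.08 with the block (adjusted p = 0.588). The TPM of mt-Rnr2 over the mean TPM of the 13 coding members was 0.0746, 0.0613 and 0.0666 in siNC and 0.0595, 0.0550 and 0.0453 in siPkm2. Each siPkm2 ratio lay below each siNC ratio (log2 difference -0.35, exact two-sided permutation p = 0.1, adjusted p = 0.3 over 3 ratios), and on counts in place of TPM the groups overlapped (-0.23, exact p = 0.4). In TPM, mt-Atp8 alone made up 43.3% to 54.3% of the sum of the coding members, with the very small effective length given above. mt-Rnr2 over mt-Rnr1 differed by -0.21 on the log2 scale (exact p = 0.6), and mt-Nd6 over the mean of the 12 heavy-strand coding members by -0.06 (exact p = 0.7). mt-Rnr2 and mt-Nd1 are neighbours on the heavy strand with the 75 bases of mt-Tl1 between them. The TPM of mt-Nd1 over that of mt-Rnr2 was 9.44, 10.2 and 12.95 in siNC and 16.0, 14 and 21.7 in siPkm2, with no overlap. This ratio was chosen after its values were seen, so it is given as a description with no p-value.

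Almost no read was assigned to the mitochondrial tRNAs, the short RNAs that carry amino acids to the ribosome. Of 22 tRNA genes, 13 had 0 counts in all 6 libraries, and the other 9 (mt-Tq, mt-Tm, mt-Tw, mt-Tn, mt-Tc, mt-Ty, mt-Ts1, mt-Te and mt-Tp) had at most 6 counts in any library. The tRNAs together had 15, 9 and 18 counts in siNC and 2, 5 and 13 counts in siPkm2, and their TPM was listed at 0 throughout. Their annotated lengths run from 59 to 75 bases, and their share of counts was lower in siPkm2 in 3 of 3 pairs (exact permutation p = 0.2; exact sign-flip p = 0.25, the smallest that 3 pairs allow). The 13 tRNAs without a count were mt-Tf, mt-Tv, mt-Tl1, mt-Ti, mt-Ta, mt-Td, mt-Tk, mt-Tg, mt-Tr, mt-Th, mt-Ts2, mt-Tl2 and mt-Tt.

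As a whole, the mitochondrial genome held a small share of the counts that did not differ between groups beyond the libraries' spread. It was 1.58%, 1.29% and 1.37% in siNC and 1.56%, 1.11% and 1.41% in siPkm2, or 1.41 ± 0.148% against 1.36 ± 0.225% (exact two-sided permutation p = 0.9). Joined with the nuclear copies the share was 2.13 ± 0.317% in siNC and 2.04 ± 0.359% in siPkm2 (p = 0.8, exact permutation). The coding members alone held 1.38 ± 0.142% in siNC and 1.33 ± 0.220% in siPkm2, and the rRNAs held 0.0339 ± 0.00676% and 0.0296 ± 0.00685% (exact permutation p = 0.5). The rRNA share was lower in siPkm2 in 3 of 3 pairs (exact sign-flip p = 0.25, the smallest that 3 pairs allow). The share of mt-Nd1 in the summed TPM of the 13 coding members was 5.62 ± 0.933% in siNC and 6.94 ± 0.891% in siPkm2, and that of mt-Co1 was 24.6 ± 6.01% and 20.6 ± 4.58%. mt-Atp8 took 46.5 ± 4.91% of this sum in siNC. Joined, mt-Nd1 had 3.16 ± 0.430% in siNC and 3.96 ± 0.491% in siPkm2, and mt-Co1 had 18.9 ± 5.17% and 15.8 ± 3.92%. On deposited counts in place of TPM, mt-Nd1 had 7.17 ± 1.42% and 9.53 ± 1.79%, and mt-Co1 had 56.6 ± 8.58% and 51.4 ± 7.90%. The sizes of these shares thus depended on the scale, and on each of these scales mt-Nd1 was higher and mt-Co1 lower in siPkm2 in 3 of 3 pairs. Over the 13 shares of deposited TPM the lowest exact permutation p was 0.2 (adjusted p = 0.867), and mt-Nd1, mt-Nd2 and mt-Nd4l had it.

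Differences between replicate numbers were larger than those between siPkm2 and siNC for most members. Joined, replicate 2 was the lowest library of siNC for 14 of 15 members and of siPkm2 for 15 of 15, and it was lowest in both groups for 93.3% of the members, while this held for 28.5% of the 15269 genes tested. mt-Nd3 in replicate 2 had 0.388 of the mean of replicates 1 and 3 in siNC and 0.379 in siPkm2, and mt-Cytb had 0.469 and 0.445. mt-Nd4l had 0.476 and 0.456, mt-Nd4 had 0.509 and 0.479, and mt-Nd1 had 0.550 and 0.505. The exceptions were mt-Co1, with 1.02 in siNC and 0.917 in siPkm2, and mt-Rnr1, with 0.862 and 0.836. The TPM of mt-Co1 over that of mt-Cytb was thereby 5.65 in siNC replicate 2 and 4.60 in siPkm2 replicate 2, against 2.19 to 2.68 in the other 4 libraries. Replicate 2 also had the lowest chondrocyte marker sum and the highest macrophage and interferon sums of each group, as given above. Their part in the difference between replicates was not tested.

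**Figure D4:**
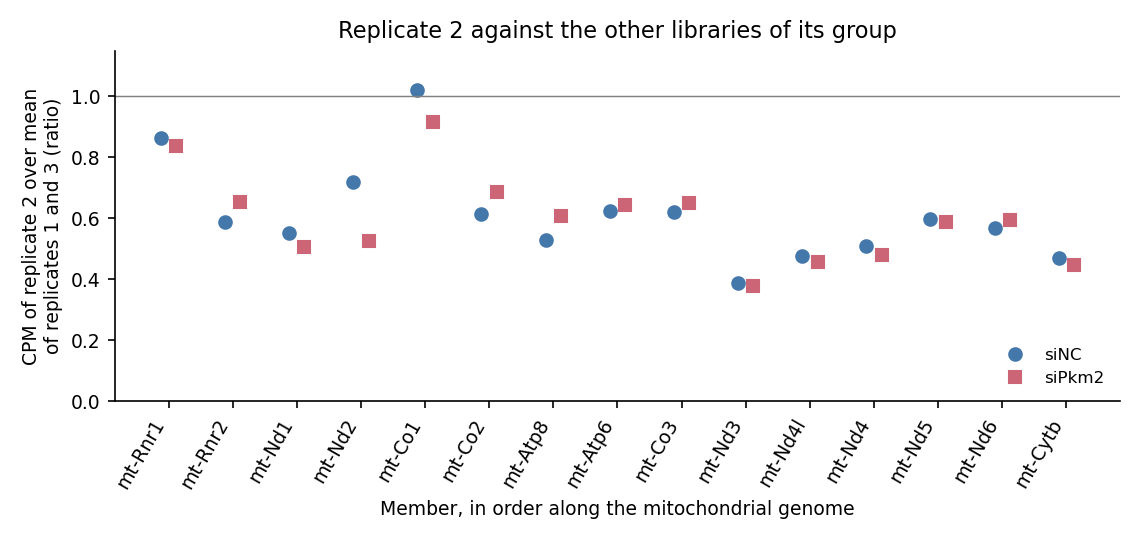
CPM of replicate 2 divided by the mean CPM of replicates 1 and 3 of the same group (y axis, ratio), joined with nuclear copies, for members in genome order; circles are siNC and squares are siPkm2. The ratio is under 0.75 for all members except mt-Rnr1 and mt-Co1, and both groups show a similar profile.

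Most nuclear genes that maintain, transcribe and process the mitochondrial genome did not pass the test. Of 53 genes listed, all 53 were tested and 0 were called without the block (9 had an unadjusted p under 0.05, and DESeq2 called 1). With the block 4 rose and 2 fell, which is 6 of 53 genes, a smaller share than the background of 23.1%. Without replicate 1 or replicate 3 of both groups, 0 of these genes were called, in fits that called no gene at all. Without replicate 2 there were 12 of 53, at a background of 39.1% of genes. None of the 10 transcription genes was called: Polrmt, the polymerase, had 31.7 ± 3.96 CPM in siNC and 33.0 ± 5.44 CPM in siPkm2 (block 0.05 ± 0.09, adjusted p = 0.70), and Tfam, which packages the genome and opens its promoters, had 22.4 ± 5.62 and 24.6 ± 2.74 CPM (0.15 ± 0.12, adjusted p = 0.387). Tfb2m, which melts the promoter, was lower in 3 of 3 pairs (block -0.38 ± 0.12, adjusted p = 0.0693).

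Among the 11 genes of mtDNA maintenance, Polg, the replicative DNA polymerase, had 64.3, 63.7 and 62.0 CPM in siNC and 93.5, 75.1 and 90.9 CPM in siPkm2 and rose with the block (0.44 ± 0.10, adjusted p = 0.0309). Top1mt, the mitochondrial topoisomerase, rose from 5.70 ± 0.917 to 10.4 ± 1.17 CPM (0.87 ± 0.14, adjusted p = 0.0182). Primpol, a primase-polymerase that also works in the nucleus, fell (-0.54 ± 0.13, adjusted p = 0.0367), as did Rrm2b, a ribonucleotide reductase subunit that supplies nucleotides (-0.68 ± 0.14, adjusted p = 0.0268). Twnk, the helicase, had -0.12 ± 0.10 with the block (adjusted p = 0.375). For each of the 4 genes that passed, no siPkm2 library overlapped the siNC libraries, which was so for 24.3% of all genes tested.

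Of the 21 genes of RNA processing and decay, those that rose with the block were Pnpt1 and Supv3l1, the exonuclease and the helicase that together degrade mitochondrial RNA. Pnpt1 had 32.4, 44.3 and 23.0 CPM in siNC and 54.7, 63.1 and 42.2 CPM in siPkm2 (0.71 ± 0.10, adjusted p = 0.0148), and the groups overlapped. Supv3l1 had 16.6, 12.9 and 14.8 CPM in siNC and 22.9, 19.1 and 22.4 CPM in siPkm2 (0.54 ± 0.10, adjusted p = 0.0224), and the groups did not overlap. Pnpt1 is also known as a gene induced by interferon, and the interferon-stimulated list was higher in siPkm2 in 3 of 3 pairs. Its part in the rise of Pnpt1 was not tested. Lrpprc and Slirp, which bind and stabilise mitochondrial mRNAs, had 0.15 ± 0.09 (adjusted p = 0.272) and 0.22 ± 0.12 (adjusted p = 0.218) with the block. None of the 11 genes of rRNA and tRNA modification was called.

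**Figure D5:**
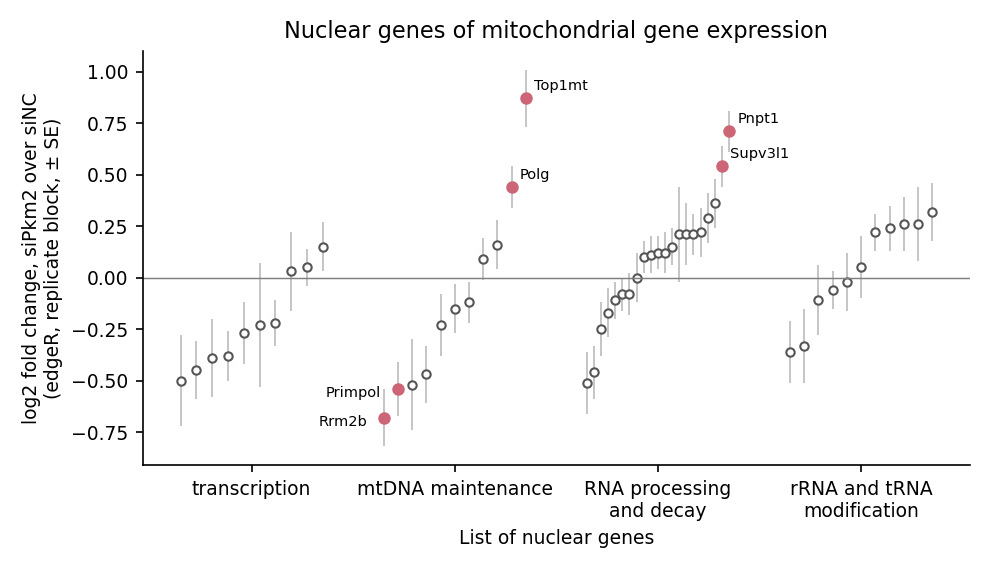
Log2 fold change of siPkm2 over siNC from edgeR with the replicate block (y axis, bars ± SE) for the 53 nuclear genes of mitochondrial gene expression, grouped by list and ordered by value. Filled points passed an adjusted p of 0.05: Polg, Top1mt, Pnpt1 and Supv3l1 above 0, and Primpol and Rrm2b below 0.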

How the data were processed

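Trizol-extracted RNA of 6 libraries was sequenced from standard Illumina libraries. The authors deposited expected counts per gene (not normalized) and TPM values, which they scaled within each library. Fractional counts made up 11.3% to 13.8% of all genes in a library, those at 0 included. The submitters' processing notes name edgeR and mm9, while 94.0% of identifiers and all 37 member lengths match GENCODE M21 on GRCm38, which gave positions. The aligner, the counter and the RNA selection are not given in the sources used here. The deposited fold changes, p-values and group means were not used.

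After rounding of the counts, edgeR 4.0.16 (run under R 4.3.3) gave the filterByExpr filter and TMM factors. Its quasi-likelihood test was fitted to all 15269 genes that passed, and p-values were adjusted by Benjamini-Hochberg. A call needs an adjusted p under 0.05, and the study's rule adds a fold over 2. DESeq2 1.42.0, limma 3.58.1 on log2(TPM + 1), other scalings and filters, and leaving out each library were alternatives. SE is the log2 fold change over the root of F. Nuclear copies were found with blastn 2.17.0 (at least 100 bases, 95% identity; joined at 99%). Joined counts, DESeq2 with the block and leaving out a replicate number of both groups were chosen after seeing the data. Every member tested is named, as are Pkm and the machinery genes that passed with or without the block plus 6 fixed ones. The members and lists were chosen with earlier results of these data known.

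The replicate numbers pair the libraries: deviations from the group mean correlated at 0.72, 0.79 and 0.72 across genes between libraries of the same number (0.22 or below otherwise), and at 0.38, 0.65 and 0.38 over the members. What a number stands for is not given. No pair of libraries in a group agreed within sampling noise (chi-square per degree of freedom 35.9 or more). The tests were also run on simulated counts, which held no difference between replicate numbers, unlike these libraries. How the fits behave under such differences was not tested.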

Additional observations from a re-analysis of the deposited data

How the results depend on the processing

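0 members were called at a fold over 2 under every alternative run. At any fold, 1 member was called with the replicate block, with the block and nuclear genes for scaling, and joined with the block by edgeR or DESeq2; 2 were called by DESeq2 with the block. With libraries left out the count ran from 0 to 5. The machinery genes called numbered 1 by DESeq2, 6 with the block (also with nuclear genes for scaling or joined), 8 by DESeq2 with the block (also joined), 12 with the block without replicate 2 of both groups (13 joined), and 0 with the block without replicate 1 or 3 of both groups and in each fit without a single library. Of all genes tested, DESeq2 called 5.38%, and 25.8% with the block. The share for edgeR was 23.1% with the block, and 39.1% with the block without replicate 2 of both groups (39.4% joined). The log2 fold change of Pkm passed the threshold by DESeq2 (-2.50), with the block (-2.53, also with nuclear genes for scaling or joined), by DESeq2 with the block (-2.52, also joined), with the block without replicate 2 of both groups (-2.63, also joined) and without siNC replicate 2 alone (-2.34, adjusted p = 0.0495, no block, edgeR), and lay between -2.80 and -2.34 with libraries left out. The block changed no other call.

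Signs of uncalled members changed as follows, as deposited or joined, and the cause was not tested. Joined values, by edgeR, edgeR with the block and DESeq2 with the block, were 0.02, 0.04 and 0.05 for mt-Co2, 0.03, 0.04 and 0.05 for mt-Atp6, -0.09, -0.07 and -0.06 for mt-Co3, 0.09, 0.09 and 0.10 for mt-Nd3, and 0.05, 0.05 and 0.06 for mt-Nd4l. As deposited, mt-Co3 was -0.70 with the block, also with nuclear genes for scaling, -0.98 by DESeq2 with the block and -1.63 by limma, and mt-Atp8 was 0.15 by limma. Without replicate 1 of both groups, mt-Atp8 was 0.13, mt-Nd6 0.04 and joined mt-Co3 -0.01; without replicate 2, joined mt-Atp6 was 0.01, joined mt-Co3 -0.10 and joined mt-Nd4l 0.07; without replicate 3, mt-Co2 was 0.07, mt-Co3 -1.62 and joined mt-Co3 -0.12. Without siPkm2 replicate 2 alone, mt-Co3 was -1.11. With libraries left out, log2 fold changes as deposited ran from -0.20 to 0.05 for mt-Rnr1 and -0.60 to 0.06 for mt-Rnr2. Those of mt-Nd1 ran from 0.14 (without siPkm2 replicate 1) to 0.67 (without siPkm2 replicate 2). Ranges were 0.15 to 0.63 for mt-Nd2, -0.23 to -0.10 for mt-Co1, -0.43 to 0.07 for mt-Co2 and -1.83 to 0.81 for mt-Co3. They were -0.44 to 0.39 for mt-Atp8, -1.25 to 0.30 for mt-Atp6, -0.10 to 0.43 for mt-Nd4 and -0.14 to 0.29 for mt-Nd5. For mt-Nd6 the range was -0.25 to 0.22 and for mt-Cytb -0.20 to 0.38. Neither mt-Nd3 (-1.55 to -0.37) nor mt-Nd4l (-1.24 to -0.28) changed sign as deposited. Joined, without a replicate number of both groups, mt-Nd3 ran from 0.03 to 0.14, mt-Nd4l from -0.02 to 0.09 and mt-Co2 from -0.02 to 0.09. The median of the coding members ran from -0.20 to 0.22.

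In percentage points of TPM in place of counts, siPkm2 minus siNC was 0.172 for all members, 0.177 for the coding members and 0.0 for the tRNAs. The tRNAs had at most 18 counts a library. What limits the precision of the members was not tested. Leaving out 1 library of a group breaks a pair, and those fits had no block.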
